A study of Homo sapiens with 4 samples.

Results

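The 10 genes described here encode the JUN proteins (JUN, JUNB and JUND), the FOS proteins (FOS, FOSB, FOSL1 and FOSL2) and the small MAF proteins (MAFF, MAFG and MAFK), all basic leucine zipper transcription factors. They were taken by gene name, with no threshold on any measured value. They are 10 of the 34500 genes to which the quantified transcripts could be assigned, and they have 50 of the 173259 transcripts in the tables, 44 of them with a count in at least 1 library. All 10 passed the filter on low counts. The data came from MCF10A, a human line of immortalised breast epithelial cells that do not form tumours, and every library, controls included, was labelled as from cells with a stably expressed scramble shRNA, a hairpin designed against no gene. The control group was 2 libraries at 0 h, and the treated group was 2 libraries from cells given 5 ng/ml TGF-β1 for 1.5 h. All cells grew in medium with EGF, insulin, hydrocortisone, cholera toxin and horse serum, so growth factors that induce FOS and JUN genes were present in the controls too. The question asked of these genes is how the mRNA of the possible dimer partners was composed before and after the cytokine.

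AP-1 is a dimer. JUN proteins pair with one another or with FOS proteins, whereas FOS proteins need a JUN or another partner, and the dimers bind the element TGACTCA or the related cyclic AMP response element TGACGTCA. JUN, FOS and FOSB are strong activators, JUNB is a weaker activator that can hold JUN back, JUND is produced in most cells without a stimulus, and FOSL1 and FOSL2 (FRA-1 and FRA-2) lack a strong activation domain. Small MAFs have no activation domain of their own; as dimers of one another they repress, and with the CNC factors NFE2L1 and NFE2L2 (NRF2) they activate antioxidant genes. TGF-β1 signals through SMAD2 and SMAD3, which are known to work with AP-1 at many target genes in epithelial cells.

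Upstream sequences of members are shown because AP-1 and cyclic AMP response elements are known to control some genes of these families. They also set members that moved beside JUND, which passed no test. RefSeq (GRCh38.p14) gave the 250 bases before the start site of 8 of the 10 genes. Each window was searched on both strands for the AP-1 element TGACTCA, its variants TGACGTCA and TGACATCA, the shorter TGACGT (contained in TGACGTCA), the SMAD box CAGAC and the TATA box TATAAA. Capitals mark the matches, and ACGTCA and GTCTG are TGACGT and CAGAC read on the other strand. Positions below count back from the RefSeq start site. JUN lies at chr1:58784096-58784125 (minus strand) and MAFF at chr22:38201929-38201958 (plus), both cut to 30 bases because exons of annotated transcripts cover their windows. JUNB lies at chr19:12791236-12791485 (plus), JUND at chr19:18281623-18281872 (minus), FOS at chr14:75278578-75278773 (plus) and FOSB at chr19:45467746-45467994 (plus). Annotated exons also cover the end of the FOS and FOSB windows. FOS is therefore printed from -250 to -55 only (196 bases) and FOSB from -250 to -2 (249 bases).
JUN: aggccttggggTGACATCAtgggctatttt
JUNB: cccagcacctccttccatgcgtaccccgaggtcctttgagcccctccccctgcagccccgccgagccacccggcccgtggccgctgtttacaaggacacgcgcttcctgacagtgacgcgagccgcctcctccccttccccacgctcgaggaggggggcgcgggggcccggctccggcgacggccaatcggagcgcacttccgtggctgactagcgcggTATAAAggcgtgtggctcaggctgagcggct
JUND: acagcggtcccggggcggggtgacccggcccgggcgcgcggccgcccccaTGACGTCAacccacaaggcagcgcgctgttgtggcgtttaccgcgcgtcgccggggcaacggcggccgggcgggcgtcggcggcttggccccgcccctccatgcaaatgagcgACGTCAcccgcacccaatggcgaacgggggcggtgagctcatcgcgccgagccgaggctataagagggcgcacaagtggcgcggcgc
FOS: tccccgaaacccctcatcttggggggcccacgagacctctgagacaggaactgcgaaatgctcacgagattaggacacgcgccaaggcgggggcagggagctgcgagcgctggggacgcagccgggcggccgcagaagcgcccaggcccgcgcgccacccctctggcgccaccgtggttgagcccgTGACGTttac
FOSB: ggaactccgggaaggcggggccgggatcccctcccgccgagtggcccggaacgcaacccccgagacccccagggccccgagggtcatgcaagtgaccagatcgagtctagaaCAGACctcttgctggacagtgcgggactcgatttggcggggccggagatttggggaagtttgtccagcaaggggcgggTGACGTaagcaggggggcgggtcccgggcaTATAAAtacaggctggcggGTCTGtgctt
MAFF: ggccgggtcggTGACGTCAccgcatgactg

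JUN held TGACATCA at -67 to -60, MAFF held TGACGTCA at -54 to -47, and JUND held TGACGTCA at -200 to -193 with a further TGACGT at -87 to -82. FOS held TGACGT at -64 to -59, and FOSB held it at -60 to -55 with CAGAC at -138 to -134 and at -11 to -7. TATAAA was at -33 to -28 in FOS, past the end of the printed stretch, and at -30 to -25 in FOSB. In the JUNB window the only match was TATAAA at -31 to -26. FOSL2, whose window is not printed, held TGACGT at -66 to -61 and CAGAC at -75 to -71, and MAFG had no match. TGACGT was thus in 5 of the 8 windows, against 7.10% of all 35116 RefSeq windows of this length. TGACGTCA was in 2 of 8 (1.65% of all windows), TGACATCA in 1 of 8 (2.37%), CAGAC in 2 of 8 (38.0%), TATAAA in 3 of 8 (10.7%) and TGACTCA in 0 of 8 (4.20%). MAFF, which rose, and JUND, which passed no test, both had TGACGTCA. A match describes letters in this window only.

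The libraries held 35737659 to 40792300 estimated counts. Replicates 1 and 2 differed within each group, with 290 genes at least 2-fold apart in the same direction in both groups. Among them was PHF8, a histone demethylase named in the labels' protocol, whose CPM (a count relative to library size) was 20.2 and 20.0 in replicates 1 of the control and treated groups but 3.88 and 4.0 in replicates 2. All 4 libraries carry the same scramble label, so the labels give no reason for that difference, and its part in the results was not tested. Each change is therefore also given within replicates 1 and within replicates 2. The labels call the libraries biological duplicates, and p-values rest only on the spread between these 2 libraries per group. The 2 tests used below, edgeR and DESeq2, draw each gene's spread toward a trend over all genes. The 8 basal mammary markers were high as a sum in all 4 libraries, at 5580 to 9320 TPM (a library-scaled level corrected for transcript length). The 7 luminal markers summed to 505 to 701 TPM, led by KRT8 (146 to 236 TPM) and KRT18 (347 to 454 TPM). ESR1, GATA3 and FOXA1 were at 1.09 to 9.72 TPM, and 2 of the 7 were under 1 TPM. Of 7 blood and endothelial markers, 6 were under 1 TPM and 2 at 0, with a sum of 14.6 to 18.1, mostly from CD68 (13.3 to 17.2 TPM). The 7 fibroblast markers, 5 of them under 1 TPM, summed to 21.4 and 19.8 TPM in the controls and to 28.5 and 26.2 after TGF-β1. Most of this was DCN, at 17.7 and 17.2 TPM in the controls and 19.0 and 21.3 after TGF-β1. COL1A1 had 2.97 and 1.99 TPM in the controls and 8.77 and 4.40 after TGF-β1. The part of these markers in the results was not tested. In bulk RNA, more cells with a transcript and more transcript per cell cannot be told apart.

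After 1.5 h of TGF-β1, 5 of the 10 genes rose and 0 fell. These were JUN and JUNB, FOS and FOSB, and MAFF, so each family had members that rose and members that did not pass. "Rose" is used of genes with a Benjamini-Hochberg adjusted p under 0.05 in DESeq2's Wald test, which called 0.422% of all genes tested higher and 0.0356% lower. edgeR's quasi-likelihood test, used as the main test, had 0 of the 10 past the same threshold, and 0.0% of all 14774 genes tested. At an unadjusted p under 0.05 edgeR had 6 members, the same 5 and MAFG, all higher, against 1.34% of all genes higher and 0.386% lower. In CPM 7 of the 10 had both TGF-β1 libraries above both controls, as did 7.87% of all tested genes, and 3 overlapped (JUND, FOSL1 and FOSL2). Within both replicate numbers 9 of the 10 were higher, against 26.3% of all tested genes, and JUND was lower. The median log2 fold change was 0.62 over the 10 genes and -0.01 over all tested genes. Fold changes over all 4 libraries and their SE are edgeR's unless said otherwise, also where a DESeq2 p stands beside them.

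**Figure D1:**
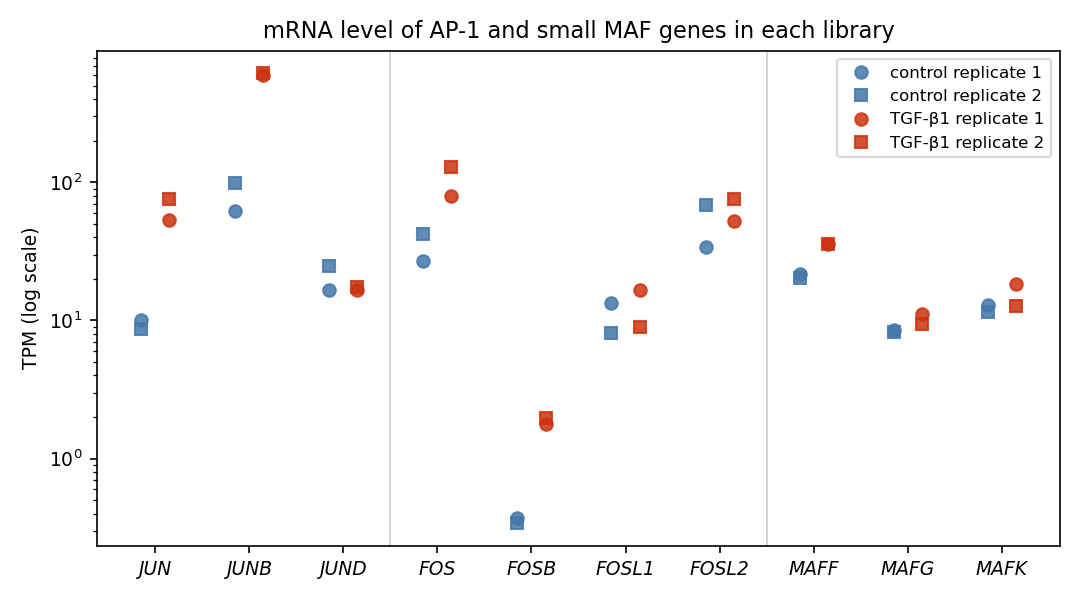
TPM (log scale) of each gene in each library; blue is control, red is TGF-β1 at 1.5 h, circles are replicates 1 and squares replicates 2, with vertical lines between the JUN, FOS and small MAF families. JUNB stood highest in both groups, at 62.1 and 98.5 TPM in the controls and 597 and 616 TPM after TGF-β1, and FOSB stood lowest.

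In the JUN family, JUNB had the most abundant mRNA and, over all 4 libraries, the largest fold change. Its gene, a single exon at chr19:12791496-12793315 (GENCODE 29, plus strand), gave 76.2 and 123 CPM in control replicates 1 and 2 and 731 and 805 CPM in TGF-β1 replicates 1 and 2. The treated libraries lay close together and far above both controls. The change was 7.70-fold, a log2 fold change of 2.94 ± 0.29 (SE; DESeq2 adjusted p = 6.66e-20, edgeR adjusted p = 0.251), with 9.59-fold within replicates 1 and 6.53-fold within replicates 2. By TPM, JUNB moved from rank 2328 and 1305 among the 14774 tested genes in the controls to rank 231 and 203. Of the 1820 bases of its transcript, 259 are shared with exons of HOOK2 on the opposite strand, whose estimated counts were 550 and 767 in the controls and 559 and 771 after TGF-β1, so the reads of the overlap are uncertain.

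JUN, the founding member and the strongest activator of the family, started far lower. The gene (chr1:58780788-58784327, minus strand) gave 25.3 and 22.2 CPM in the controls and 132 and 203 CPM after TGF-β1, with no overlap. It rose 7.05-fold, a log2 fold change of 2.82 ± 0.26 (SE; DESeq2 adjusted p = 2.31e-18, edgeR adjusted p = 0.217). The change was 5.22-fold within replicates 1 and 9.14-fold within replicates 2, so the order of JUN and JUNB in fold change differed between the replicate numbers. DESeq2 called JUN and JUNB higher without each library in turn.

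JUND, the member made without a stimulus in most cells, passed neither test. The gene (chr19:18279760-18281622, minus strand) gave 21.0 and 27.9 CPM in the controls and 20.9 and 23.3 CPM after TGF-β1, and the groups overlapped. Its log2 fold change was -0.14 ± 0.19 (SE; DESeq2 adjusted p = 1.00), with 0.00 within replicates 1 and -0.26 within replicates 2. Control replicate 2, the highest library, was also the one in which a short JUND transcript of 500 bases held 14.7% of the gene's TPM, against 0% to 1.00% in the other 3 libraries. In counts this transcript was small there, with 33.2 of the gene's 1021. The main transcript, JUND-201, had a log2 fold change of -0.12 ± 0.20 (SE). Without control replicate 2 the gene's log2 fold change was 0.08.

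In the FOS family, FOS, the immediate-early gene that is transcribed within minutes of a growth signal, rose 3.16-fold. The gene (chr14:75278774-75282230, plus strand) gave 34.6 and 57.3 CPM in the controls and 103 and 187 CPM after TGF-β1. Replicate 2 was the higher library in both groups, by 0.73 in the controls and 0.86 after TGF-β1 on the log2 scale, and the groups did not overlap. The log2 fold change was 1.66 ± 0.40 (SE; DESeq2 adjusted p = 0.00579, edgeR adjusted p = 1.00), with 1.58 within replicates 1 and 1.71 within replicates 2. The DESeq2 call ended when control replicate 1 (adjusted p = 0.111) or TGF-β1 replicate 2 (adjusted p = 0.338) was left out.

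FOSB rose 7.14-fold from a level close to the limit of detection. The gene (chr19:45467995-45475179, plus strand) had 30 and 18 estimated counts in the controls and 178 and 152 after TGF-β1, or 0.755 and 0.491 CPM against 4.55 and 4.40 CPM. Its log2 fold change was 2.83 ± 0.35 (SE; DESeq2 adjusted p = 9.01e-07, edgeR adjusted p = 0.474), and 2.59 and 3.16 within replicates 1 and 2. The DESeq2 call ended without TGF-β1 replicate 1 (adjusted p = 0.214). Even after the rise FOSB had 1.77 and 1.96 TPM, the lowest level of the 10 genes.

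The FRA genes passed neither test in the fits without a block. FOSL2 was the most abundant FOS-family mRNA in the controls at 34.1 and 68.4 TPM, and had 52.1 and 76.1 TPM after TGF-β1. The gene (chr2:28392448-28417312, plus strand) had a log2 fold change of 0.40 ± 0.41 (SE; DESeq2 adjusted p = 1.00), with 0.63 within replicates 1 and 0.26 within replicates 2. Its replicate 2 was higher in both groups, by 0.98 and 0.62 on the log2 scale, so the spread between replicate numbers was larger than the difference between groups. FOSL1 (chr11:65892049-65900573, minus strand) went the other way between replicate numbers, with 13.7 and 8.60 CPM in the controls and 17.2 and 9.30 CPM after TGF-β1. Its log2 fold change was 0.25 ± 0.40 (SE; DESeq2 adjusted p = 1.00), and the groups overlapped. Without control replicate 1 the value of FOSL2 was -0.01, and without TGF-β1 replicate 1 that of FOSL1 was -0.27.

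Of the small MAFs, MAFF, the member known to be inducible by stress and cytokines, rose 1.72-fold. The gene (chr22:38200767-38216511, plus strand) gave 35.9 and 34.7 CPM in the controls and 59.2 and 62.1 CPM after TGF-β1, so the spread within each group was small beside the difference. The log2 fold change was 0.78 ± 0.11 by edgeR (SE; edgeR adjusted p = 0.566) and 0.789 ± 0.205 by DESeq2 (SE; DESeq2 adjusted p = 0.0291). Within replicates 1 and 2 it was 0.72 and 0.84. DESeq2 no longer called MAFF when any 1 library was left out (adjusted p = 1.00 each), while edgeR's log2 fold change stayed between 0.76 and 0.81 in those fits.

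MAFG (chr17:81918270-81927714, minus strand) had 28.99 and 27.98 CPM in the controls and 38.8 and 35.5 CPM after TGF-β1. Both treated libraries were above both controls, with a log2 fold change of 0.38 ± 0.12 (SE; DESeq2 adjusted p = 1.00). MAFK (chr7:1530714-1543043, plus strand) had 28.8 and 24.0 CPM against 41.9 and 30.6 CPM, a log2 fold change of 0.46 ± 0.21 (SE; DESeq2 adjusted p = 1.00), and its groups overlapped in TPM (12.9 and 11.5 against 18.5 and 12.8). Both genes share exonic bases with neighbours, MAFG 105 with SIRT7 on its own strand and 224 with AC145207.8, and MAFK 809 of 3368 with TMEM184A on the opposite strand. Their values are uncertain to that extent, since the strand setting of the quantification is not given in the sources used here.

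**Figure D2:**
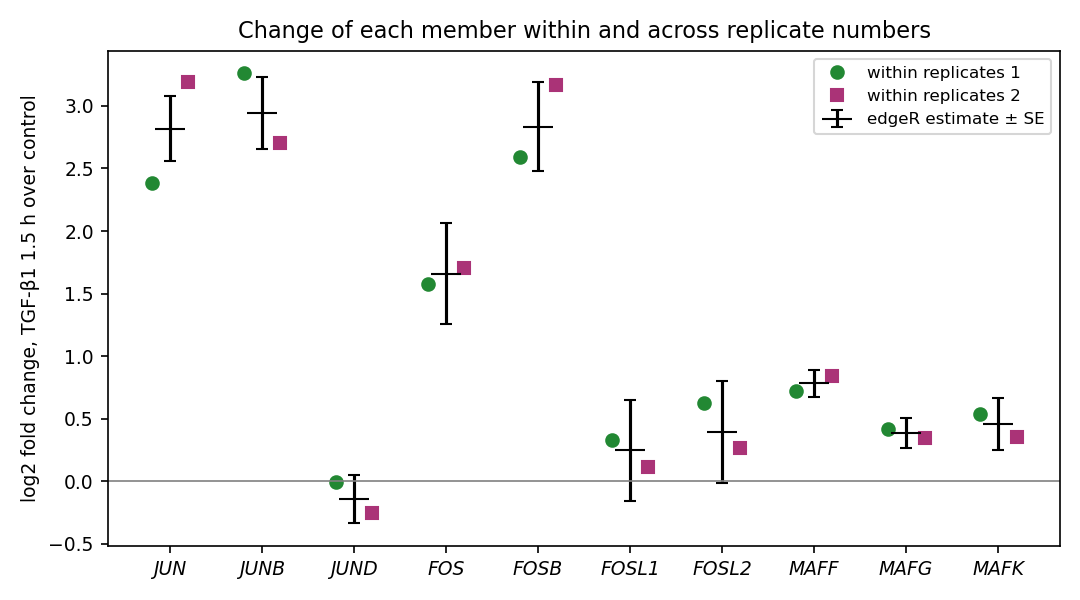
Log2 fold change (TGF-β1 at 1.5 h over control) of each gene; the black dash and bar are edgeR's estimate ± SE over all 4 libraries, the green circle is the change within replicates 1 and the purple square that within replicates 2. Within both replicate numbers 9 of the 10 genes lay above 0, JUN, JUNB, FOS, FOSB and MAFF among them, and JUND lay at 0.00 and -0.26.

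The levels per length show how the order of the 10 mRNAs was rearranged. In the controls it ran JUNB (80.3 TPM), FOSL2 (51.2), FOS (34.7), MAFF (20.9), JUND (20.6), MAFK (12.2), FOSL1 (10.8), JUN (9.40), MAFG (8.33) and FOSB (0.356). Neighbours whose libraries overlapped were JUNB and FOSL2, FOSL2 and FOS, MAFF and JUND, MAFK and FOSL1, and FOSL1 and JUN. After TGF-β1 it ran JUNB (606 TPM), FOS (105), JUN (64.3), FOSL2 (64.1), MAFF (35.8), JUND (17.1), MAFK (15.6), FOSL1 (12.8), MAFG (10.2) and FOSB (1.87). There JUN and FOSL2 overlapped, as did JUND and MAFK, MAFK and FOSL1, and FOSL1 and MAFG. JUNB was thus first in both orders, JUN went from the eighth place to the third, and FOS from the third to the second.

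The composition of each family's mRNA followed from these levels. The values are shares of the family's summed TPM, and each difference whose groups did not overlap had an exact permutation p of 0.333 (two-sided), the smallest that 2 libraries against 2 allow. JUNB made up 69.9% and 74.7% of JUN-family mRNA in the controls and 89.6% and 86.9% after TGF-β1, a mean of 72.3% ± 3.44 against 88.2% ± 1.90 (SD, n = 2). JUND, the unstimulated member, had 18.8% and 18.7% in the controls and 2.51% and 2.47% after TGF-β1. The shares of JUN overlapped, at 11.4% and 6.59% against 7.94% and 10.7% (exact permutation p = 1.00). JUNB alone gave 92.6% of the difference in the family's TPM within replicates 1 and 89.6% within replicates 2.

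In the FOS family, FOS had the largest share after TGF-β1 and FOSL2 in the controls. This order is per length, and in CPM FOSL2 was above FOS in all 4 libraries. FOS held 36.0% and 35.6% of the family's TPM in the controls and 53.2% and 59.8% after TGF-β1. FOSL2 held 45.6% and 57.3% in the controls and 34.6% and 35.2% after TGF-β1. The ratio of FOS to FOSL2 mRNA was 0.789 and 0.621 in the controls and 1.54 and 1.70 after TGF-β1. FOSB stayed a minor component, at 0.498% and 0.286% against 1.17% and 0.908%, in spite of its 7.14-fold rise. FOSL1 had overlapping shares, 17.9% and 6.84% against 11.1% and 4.15% (exact permutation p = 0.667).

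Among the small MAFs MAFF was first in all 4 libraries. It held 50.4% and 50.7% of their summed TPM in the controls and 54.8% and 61.6% after TGF-β1, MAFG 19.7% and 20.5% against 17.0% and 16.2%, and MAFK 29.9% and 28.8% against 28.2% and 22.2%. Here too the groups did not overlap. The mean gain of MAFF, 7.69 percentage points, was 4.28 without TGF-β1 replicate 2 and 3.92 with the most abundant transcript of each gene. The family's sum went from 41.5 ± 2.28 to 61.6 ± 5.36 TPM (SD, n = 2), 1.49-fold, and MAFF gave 63.3% of that difference within replicates 1 and 85.9% within replicates 2.

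**Figure D3:**
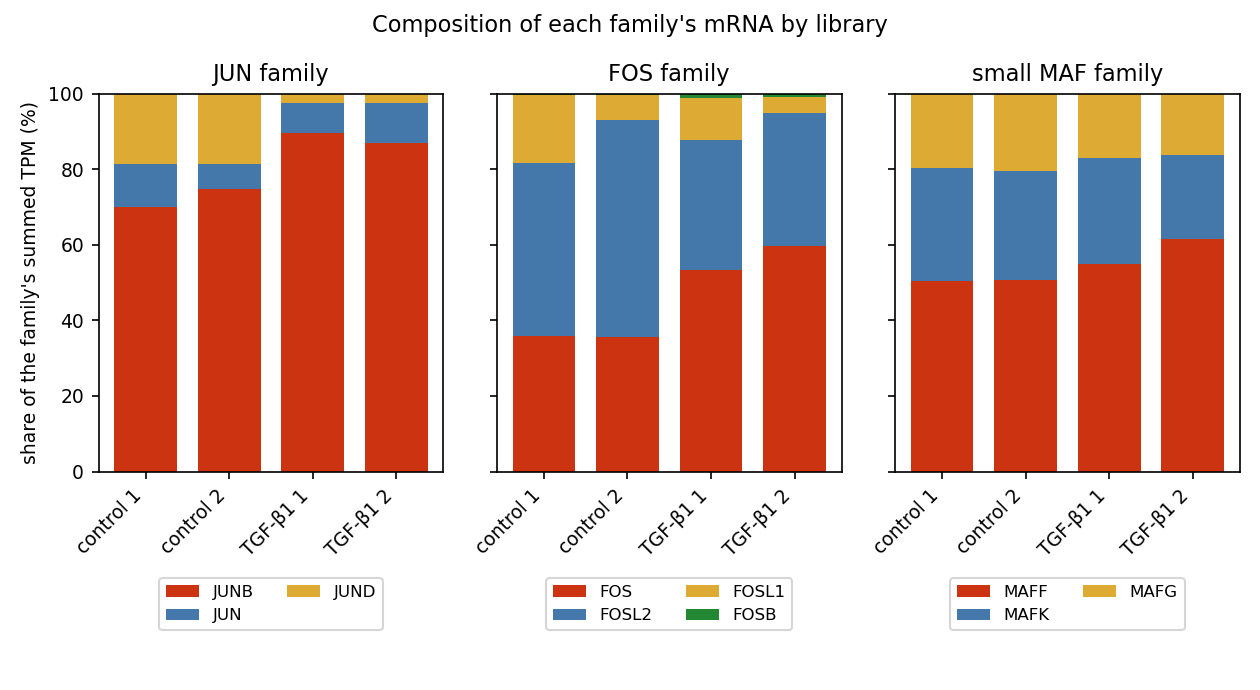
Share (%) of each gene in the summed TPM of its family, 1 stacked bar per library, for the JUN, FOS and small MAF families. JUND shrank from 18.8% and 18.7% to 2.51% and 2.47% of JUN-family mRNA, and FOS had a larger TPM share than FOSL2 after TGF-β1 only.

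Between the families, the ratio of JUN-family to FOS-family mRNA was higher after TGF-β1. JUN-family mRNA summed to 88.8 and 132 TPM in the controls and 667 and 709 TPM after TGF-β1, 6.23-fold over the means and 7.50-fold and 5.38-fold within replicates 1 and 2. FOS-family mRNA summed to 74.8 and 119 TPM in the controls and 151 and 216 TPM after TGF-β1, 1.89-fold over the means. JUN-family mRNA was therefore 1.19 and 1.10 times FOS-family mRNA in the controls and 4.42 and 3.28 times after TGF-β1 (exact permutation p = 0.333). With the most abundant transcript of each gene in place of all transcripts the ratio had means of 1.70 in the controls and 5.34 after TGF-β1. In estimated counts, which are not corrected for length, it had means of 0.586 and 2.29, so on that scale the FOS family was the larger in the controls.

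Of the single pairs computed, the ratio moved most where JUND was the partner. JUNB to JUND stood at 3.725 and 4.001 in the controls and 35.7 and 35.1 after TGF-β1. JUN to JUND stood at 0.607 and 0.353 in the controls, with JUND the higher, and at 3.16 and 4.31 after TGF-β1. JUNB to FOS was 2.31 and 2.32 in the controls and 7.44 and 4.76 after TGF-β1. JUNB to JUN overlapped between the groups, at 6.14 and 11.4 against 11.3 and 8.14. These are ratios of mRNA, and protein and dimers were not measured.

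**Figure D4:**
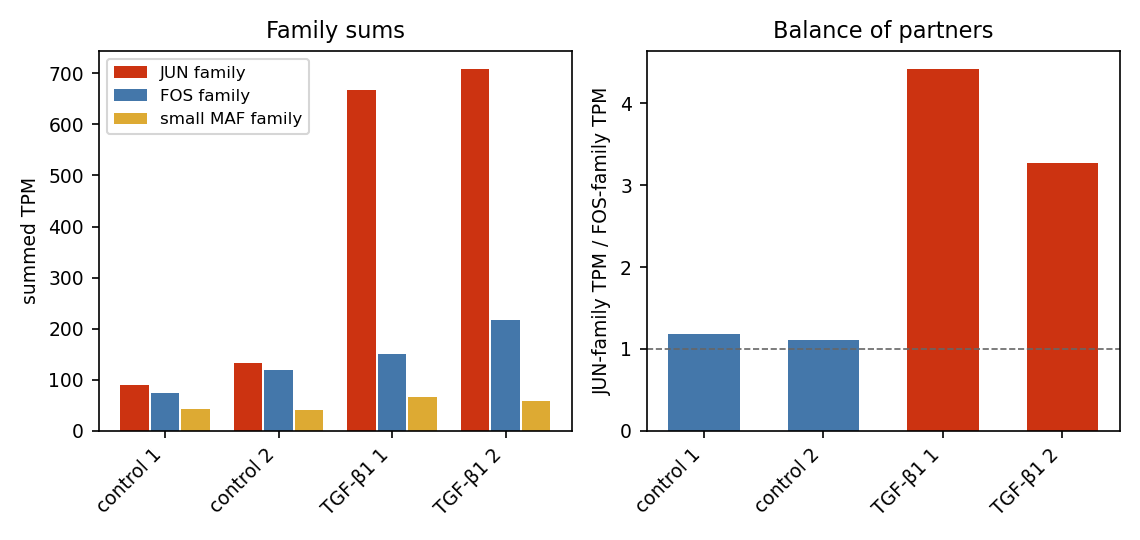
Left, summed TPM of the JUN, FOS and small MAF families in each library; right, the ratio of JUN-family to FOS-family TPM, with a dashed line at equal amounts. The ratio was 1.19 and 1.10 in the controls (blue) and 4.42 and 3.28 after TGF-β1 (red).

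Single transcripts gave the same picture with more uncertainty, since short reads are divided among transcripts by estimation. Of the 50 member transcripts 29 passed the filter, and 4 rose by DESeq2, JUN-201, JUNB-201, FOS-201 and FOSB-201, with 0 lower (0.442% of all transcripts tested were called higher). edgeR called 0 of the 29 and 0.0% of all transcripts, with 9 member transcripts at an unadjusted p under 0.05, all higher, against 1.69% of all transcripts tested. JUN and JUNB had 1 transcript each in the tables. FOS-201, which encodes the full-length protein, held 74.6% and 78.3% of FOS TPM in the controls and 76.6% and 83.7% after TGF-β1 (DESeq2 adjusted p = 0.00941).

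FOSB-201 was listed at 0 in both controls and had 153 and 104 estimated counts after TGF-β1, 82.7% and 53.4% of FOSB TPM there (DESeq2 adjusted p = 1.11e-05). The FOSB reads of the controls were assigned to other FOSB transcripts. MAFF was split between MAFF-201 (49.8% and 61.2% of MAFF TPM in the controls, 55.5% and 46.6% after TGF-β1) and MAFF-204 (41.3% and 24.4%, then 35.7% and 50.7%). Neither MAFF transcript passed alone (DESeq2 adjusted p = 0.488 for both), although the gene's sum over all its transcripts did (DESeq2 adjusted p = 0.0291).

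The pathway around the members was described with 8 further lists of 83 genes, 75 of them tested, of which 3 rose by DESeq2 (IL11, HMOX1 and KLF4) and 0 fell. Among 11 tested AP-1 and ATF partners 0 were called, with a median log2 fold change of 0.03. ATF2, which pairs with JUN, had 58.1 and 58.2 CPM in the controls and 57.0 and 57.9 CPM after TGF-β1. ATF3, a stress-induced partner, had 2.57 and 2.18 CPM in the controls and 3.89 and 4.26 CPM after TGF-β1 (log2 fold change 0.78 ± 0.26, DESeq2 adjusted p = 1.00). Neither DDIT3 (CHOP), at -0.65 ± 0.26 (SE) on the log2 scale, nor JDP2, a repressor that pairs with JUN, at 0.48 ± 0.40, passed. Of 13 kinases upstream of AP-1, 0 were called. MAP3K1, which activates the JNK cascade, had 30.5 and 29.9 CPM in the controls and 45.2 and 36.5 CPM after TGF-β1 (log2 fold change 0.44 ± 0.15, SE), and the ERK gene MAPK3 had a log2 fold change of 0.17 ± 0.15. SRF, which drives FOS through its serum response element, had -0.05 ± 0.15, and 0 of 6 genes for SRF and its cofactors were called.

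No listed CNC or BACH partner of the small MAFs was called. Among 7 tested genes, the CNC and BACH factors and KEAP1, 0 passed. NFE2L1 had 331 and 325 CPM in the controls and 385 and 366 CPM after TGF-β1. NFE2L2 had 110 and 142 against 101 and 130 CPM. BACH1, a repressor that pairs with small MAFs, was at 80.0 and 61.3 CPM in the controls and 83.5 and 63.2 CPM after TGF-β1. KEAP1, which holds NRF2 in the cytoplasm, had a log2 fold change of 0.14 ± 0.15 (SE).

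Of 12 antioxidant genes that NRF2 and small MAFs control, 1 rose. This was HMOX1, the haem oxygenase held down by BACH1, with 2.34 and 2.35 CPM in the controls and 7.93 and 16.7 CPM after TGF-β1 (5.25-fold, DESeq2 adjusted p = 4.66e-05, edgeR adjusted p = 0.913). The call ended without TGF-β1 replicate 2 (DESeq2 adjusted p = 0.241). The other 11 did not pass, and their list had a median log2 fold change of -0.01. Log2 fold changes were -0.05 ± 0.21 (SE) for NQO1, the usual NRF2 target, -0.11 ± 0.17 for GCLC, which makes glutathione, and 0.15 ± 0.36 for SRXN1, a sulfiredoxin.

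Of 14 tested AP-1 target genes 1 rose. IL11, a cytokine of the IL-6 family, had 0.856 and 0.409 CPM in the controls and 6.14 and 2.87 CPM after TGF-β1 (7.07-fold, DESeq2 adjusted p = 0.00218, edgeR adjusted p = 1.00). IL11 was no longer called when control replicate 2 (adjusted p = 0.215) or TGF-β1 replicate 1 (adjusted p = 1.00) was left out. DUSP1, a phosphatase that switches off JNK and p38, had 198 and 269 CPM in the controls and 270.1 and 469 CPM after TGF-β1 and did not pass (log2 fold change 0.67 ± 0.33, DESeq2 adjusted p = 1.00). The matrix metalloproteinase genes MMP1, MMP3 and MMP10 were below the filter, and the median of the 14 was 0.13.

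Of 10 other immediate-early genes tested, KLF4, a zinc-finger factor of epithelial differentiation, rose 2.60-fold from 8.63 and 7.59 to 22.1 and 20.1 CPM (DESeq2 adjusted p = 2.87e-05, edgeR adjusted p = 0.368), and 0 fell. KLF4 was no longer called when control replicate 2 (adjusted p = 0.252) or either treated library (adjusted p = 0.605 and 0.0917) was left out. MYC, a growth-promoting factor, had 404 and 489 CPM in the controls and 123 and 242 CPM after TGF-β1 and did not pass (DESeq2 adjusted p = 0.0853). With TGF-β1 replicate 2 left out MYC was called lower (adjusted p = 1.46e-05). IER2 was at 31.7 and 31.4 CPM against 45.8 and 39.5 CPM and did not pass (DESeq2 adjusted p = 1.00). EGR1, which growth factors induce together with FOS, was lower in both treated libraries, at 14.1 and 13.7 CPM against 5.68 and 9.50 CPM (log2 fold change -0.88 ± 0.29, DESeq2 adjusted p = 1.00). By edgeR's unadjusted p under 0.05 the list had 3 genes higher (KLF4, IER2 and ATF3) and 2 lower (MYC and EGR1), and its median log2 fold change was 0.02.

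The genes with the profile over the 4 libraries most like a member's were found by the distance between centred log2 CPM values among 12300 genes, where 0 is identical. Nearest to JUNB were LFNG, which glycosylates Notch receptors (distance 0.273), FAM43A (0.450) and the inhibitory SMAD6 (0.485). Nearest to JUN were the helix-loop-helix repressor BHLHE40 (0.479), ID3 (0.496) and FOSB (0.566). Nearest to FOS were the ephrin ligand EFNA1 (0.306), the pro-apoptotic BCL2L11 (0.407) and the zinc-finger factor KLF10 (0.460). EFNA1 had 48.1 and 62.6 CPM in the controls and 148 and 251 CPM after TGF-β1, higher in replicate 2 of both groups as FOS was. Of 9 genes named here only FOSB is itself a member, and with 4 libraries such likeness is a description.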

How the data were processed

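The values are gene expression levels from RNA-seq of MCF10A cells, 2 control libraries and 2 libraries after TGF-β1. The labels' protocols describe a stranded kit with ribosomal RNA depletion, although the molecule is labelled polyA RNA. Per the submitters' processing notes, the authors used kallisto and the GRCh38 build. Not given in the sources used here are its version, the transcript release and the strand setting. For each transcript the deposited tables list estimated counts, TPM and effective length, per the file headers.

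Transcripts were assigned to genes with GENCODE 29 (159239 of 173259 matched, the rest holding 2.24% to 2.38% of counts), summed per gene, and estimated counts were rounded. The main test was edgeR 4.0.16 (quasi-likelihood, TMM, filterByExpr, R 4.3.3) on 14774 genes without covariates. DESeq2 1.42.0 (Wald test, 19649 genes with an adjusted p) was an alternative, as were RLE scaling, other filters, a transcript-length offset, limma 3.58.1 on log2(TPM + 1), the replicate number as a block and each library left out. Adjustment was over all genes tested. An edgeR version 4 fit was added after seeing the data. edgeR's standard error of a log2 fold change is that change divided by the root of its F statistic. Family shares are from TPM sums, compared by exact permutation. Both tests were run on simulated counts with the same spread setting for every gene and no difference between replicate numbers. That run therefore cannot show how the tests perform on these libraries.

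The members, gene lists and tests were chosen with earlier results of these data known. The rule for named genes took all members, the listed genes that DESeq2 called, up to 3 per list with the smallest edgeR p, and the 3 genes nearest to JUNB, JUN and FOS. ATF2, BACH1, NFE2L2, NQO1, EGR1, MMP1, MMP3 and MMP10 were named outside it, after their values were seen. The results of 2 genes under the rule are not reported here. Promoter windows are from RefSeq, and matches of motifs were counted with the same search in all 35116 windows.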

Additional observations from a re-analysis of the deposited data

How the results depend on the processing

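edgeR's count of members past the threshold, 0 of 10, became 2 without a filter on low counts (0.0647% of all genes called) and 7 with the replicate block (2.27%), which added MAFG and MAFK to DESeq2's 5 (adjusted p = 0.0238 and 0.0239). DESeq2 called 5 (0.458%), or 6 with a replicate block (1.58%), which added FOSL2 (adjusted p = 0.00025). Leaving out 1 library moved the count in both tests, though not in every fit, and such a fit had only 1 library in 1 group. Same-numbered libraries deviated together across genes (correlation 0.795), but nothing in the labels ties equal numbers to one culture or preparation, so they are taken to share a number only. Of member transcripts edgeR called 0, also with the replicate block or without 1 library, and DESeq2 4. In the other lists edgeR called 0 genes, DESeq2 3, edgeR with the replicate block 11, and DESeq2 without 1 library 1 to 5. The direction of 3 genes that passed no test without the block turned when 1 library was left out, over a range of log2 fold changes from -0.328 to 0.077 for JUND, -0.270 to 0.644 for FOSL1 and -0.009 to 0.967 for FOSL2. JUND had 0.07 by DESeq2 without control replicate 2, and FOSL1 -0.05 without that library. The other 7 members kept their direction in all 17 settings. In shares of estimated counts, which favour long transcripts, FOS gained 15.3 percentage points in its family, against 20.7 in TPM. The ratio of FOS-family to JUN-family mRNA had a difference of -0.608 in TPM, -1.29 in estimated counts and -0.396 with the most abundant transcripts. The cause of these shifts was not tested. With 2 libraries per group, FOSB at 18 to 178 counts is the member most limited by depth.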
